A study of Homo sapiens with 6 samples.

Results

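BBS10 and the genes of the BBSome are described here as measured by RNA-seq in a human lung adenocarcinoma cell line in which CRISPR interference (CRISPRi) was directed to the first intron of SFTPB. The 10 genes, taken by their symbols, were BBS1, BBS2, BBS4, BBS5, BBS7, TTC8, BBS9, MKKS, BBS10 and BBS12, out of 26485 gene symbols listed in each of the 6 libraries. The set was built around BBS10, which was selected on its log2 fold change and adjusted p in the comparison of these same libraries, so its values in that comparison are given as a description with no test. All 10 genes had enough reads to enter the comparison.

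The cells were A549, which carried 2 lentiviral transgenes in both groups. The first was dCas9-KRAB, a cleavage-dead Cas9 joined to a KRAB repressor domain and kept by puromycin selection. The second was rat Nkx2-1, the lung transcription factor, expressed from a PGK-IRES-EGFP vector and kept by sorting for GFP. The 3 libraries called sgRNA #2 came from cells transiently transfected with a synthetic guide RNA against the SFTPB intron, and the 3 called sgRNA control came from cells given a non-targeted guide. The triplicates were stated to be biologically independent, no source says that the transduced line is 1 clone, and only 1 targeting guide was sequenced, so what belongs to the guide and what belongs to SFTPB repression cannot be told apart. In such bulk samples, fewer expressing cells and less RNA per cell cannot be told apart either.

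The BBSome is a coat-like complex that carries membrane proteins, among them signalling receptors, into and out of the primary cilium together with the intraflagellar transport (IFT) trains. The small GTPase ARL6 recruits it to membranes. MKKS, BBS10 and BBS12 resemble subunits of the CCT chaperonin and act with CCT to assemble the BBSome, of which they are not lasting parts. Loss of function of any of the 10 genes can cause Bardet-Biedl syndrome, a ciliopathy with retinal degeneration, obesity, polydactyly and kidney disease.

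The guide and the place in BBS10 that its 3′ end resembles are shown because the comparison is between cells with and without this guide. Both are written 5′ to 3′ with the 3-base NGG motif that Cas9 requires (PAM) at the end, and capitals mark the bases that equal the guide, read without a break from the PAM. The first is at chr2:85668529-85668551 on the minus strand of GRCh38, the only exact match of the guide in that genome, and the second is at chr12:76348381-76348403 on the plus strand.
SFTPB intron 1: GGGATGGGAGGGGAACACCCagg
BBS10 exon 1: gaccagcttgcaGAACACCCggg

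The BBS10 sequence shared the 8 bases next to the PAM with the guide. Its 9 mismatches were G2A, G3C, A4C, T5A, G7C, G8T, A9T, G11C and G12A, with the guide's base first and positions counted from 1 at the guide's 5′ end. Its centre lay 23 bp downstream of the BBS10 start site, in exon 1 and within the 5′ UTR, before the start codon. Within 1000 bp of a start site, 8 or more such bases were found for 198 of 13077 tested genes that could be placed (1.51%). Among the other 9 genes of the set, the longest match was 6 bases at BBS1, BBS2 and BBS12, a length found near 24.2% of tested genes, and was shorter than 6 bases at BBS4, BBS5, BBS7, TTC8, BBS9 and MKKS. These matches describe letters, and binding of dCas9 was not measured.

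Ciliary genes are often driven by RFX transcription factors, whose X-box contains the letters GTTGCC followed by A. Promoter sequences from RefSeq (GRCh38.p14), covering 250 bases before to 50 after each start, were found for 9 of the 10 genes, all but BBS9. TTC8 and MKKS had 2 promoters each. A gene was counted if any of its promoters matched, while the shares below are of single promoters. GTTGCCA was present on either strand in 1 of the 9, BBS1, and in 4.08% of 35116 promoters. The shorter GTTGCC, which any GTTGCCA also contains, was present in 4 of the 9 and in 12.2% of all promoters. These 4 are printed on the strand of their gene with GTTGCC in capitals, so that the bases around it can be compared. They lie in BBS1 at chr11:66510625-66510652 (plus strand), BBS5 at chr2:169479469-169479496 (plus), TTC8 at chr14:88824606-88824633 (plus) and BBS10 at chr12:76348620-76348647 (minus).
BBS1: gggcggggccgGTTGCCaggacgacgcc
BBS5: agaggcggcccGTTGCCttggagccaga
TTC8: agccgtcgcggGTTGCCgggcagagtcg
BBS10: aggggcttaggGTTGCCgctccaggcac

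The letters began 1 base after the start in BBS1, 14 bases before it in BBS5, 34 bases before 1 of the 2 starts in TTC8 and 221 bases before the start in BBS10. The 250 bases before the BBS10 start, chr12:76348416-76348665 on the minus strand of GRCh38, are given whole because the set was built around BBS10. The only GTTGCC in it is in capitals, near its 5′ end.
BBS10 upstream: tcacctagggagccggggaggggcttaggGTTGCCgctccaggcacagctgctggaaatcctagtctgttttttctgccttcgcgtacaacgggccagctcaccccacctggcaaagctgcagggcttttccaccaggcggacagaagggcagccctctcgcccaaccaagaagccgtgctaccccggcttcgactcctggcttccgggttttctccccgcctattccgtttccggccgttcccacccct

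Libraries held between 6047554 and 7584611 reads assigned to genes, so the 3-count floor lay between 0.396 and 0.496 CPM (read counts scaled to a common library size). The lowest count of any of the 10 genes was 41, for BBS5 in an sgRNA #2 library. Floors and intervals on single counts cover counting error only. SFTPB, the targeted gene, which encodes surfactant protein B, had 2683, 2877 and 3155 counts in control and 40, 42 and 49 in sgRNA #2 libraries. Of 10 markers of A549 and its epithelial origin, 9 passed the count filter. The markers summed to 10291.2 to 11240.7 CPM in control and 9731.24 to 10766.5 CPM in sgRNA #2 libraries, while KRT19 had 0 to 4 counts. EPCAM was also low, with 44, 58 and 76 counts in control and 61, 50 and 47 in sgRNA #2 libraries. CDH1 (E-cadherin) passed the adjusted threshold at -0.34 on the log2 scale (adjusted p = 0.00728). With the replicate number as a block KRT8 (-0.13, adjusted p = 0.0235) and AKR1B10 (0.13, adjusted p = 0.0297) passed it too. The 12 markers of other cell types summed to 13.8 to 17.7 CPM in control and 11.8 to 18.8 CPM in sgRNA #2 libraries. Of these 12, 5 were at 0 in all 6 libraries. Most of the sum came from the 2 that passed the count filter, COL1A1 and ACTA2. COL1A1 had 43 to 56 counts in control and 36 to 58 in sgRNA #2 libraries, and ACTA2 had 43 to 67 and 34 to 60.

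BBS10 was lower in every sgRNA #2 library, and the values of its partners MKKS and BBS12 overlapped between the groups. BBS10 encodes a chaperonin-like protein that retains an ATP-binding site and works with MKKS, BBS12 and CCT. It had 284, 305 and 352 counts in control and 143, 141 and 142 in sgRNA #2 libraries. After scaling by library size with TMM factors, these were 45.2, 43.2 and 46.3 CPM against 20.3, 21.2 and 23.7 CPM. The 2 groups did not overlap, and 8.83% of all tested genes were likewise lower with sgRNA #2 without overlap. For BBS10 the lowest control library was well above the highest sgRNA #2 library. The means were 44.9 ± 1.55 and 21.7 ± 1.72 CPM (SD, n = 3 each), so the level with sgRNA #2 was 48.3% of control. The log2 fold change was -1.05 (SE 0.0992, 95% interval -1.26 to -0.84). This value lies just past the study's fold cut-off of 1 in size on the log2 scale, and the interval includes that cut-off.

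MKKS, the chaperonin-like partner named after McKusick-Kaufman syndrome, had 813, 938 and 1018 counts in control and 913, 963 and 815 in sgRNA #2 libraries. Its means were 132 ± 2.302 and 137 ± 7.43 CPM (SD, n = 3 each), and the ranges overlapped. Its log2 fold change was 0.05 (SE 0.0660, 95% interval -0.09 to 0.19, adjusted p = 0.873 in the quasi-likelihood test of edgeR, adjusted over all tested genes by the Benjamini-Hochberg method as is each adjusted p given). BBS12, the other chaperonin-like protein, had 64, 102 and 108 counts in control and 80, 88 and 78 in sgRNA #2 libraries. Its sgRNA #2 values lay inside the control range. The log2 fold change of BBS12 was -0.06 (SE 0.159, 95% interval -0.39 to 0.28, adjusted p = 0.94).

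Expressed per kb of exon, BBS10 made up 34.4 to 37.2% of the summed level of MKKS, BBS10 and BBS12 in control libraries and 19.6 to 22.3% in sgRNA #2 libraries. The share of MKKS was 52.6 to 54.0% in control and 64.9 to 67.7% in sgRNA #2 libraries. For each unit of BBS12 there were 3.43 ± 0.740 units of BBS10 in control and 1.67 ± 0.113 in sgRNA #2 libraries (SD, n = 3 each). These shares follow from the lower BBS10 level and are no separate measurement.

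**Figure D1:**
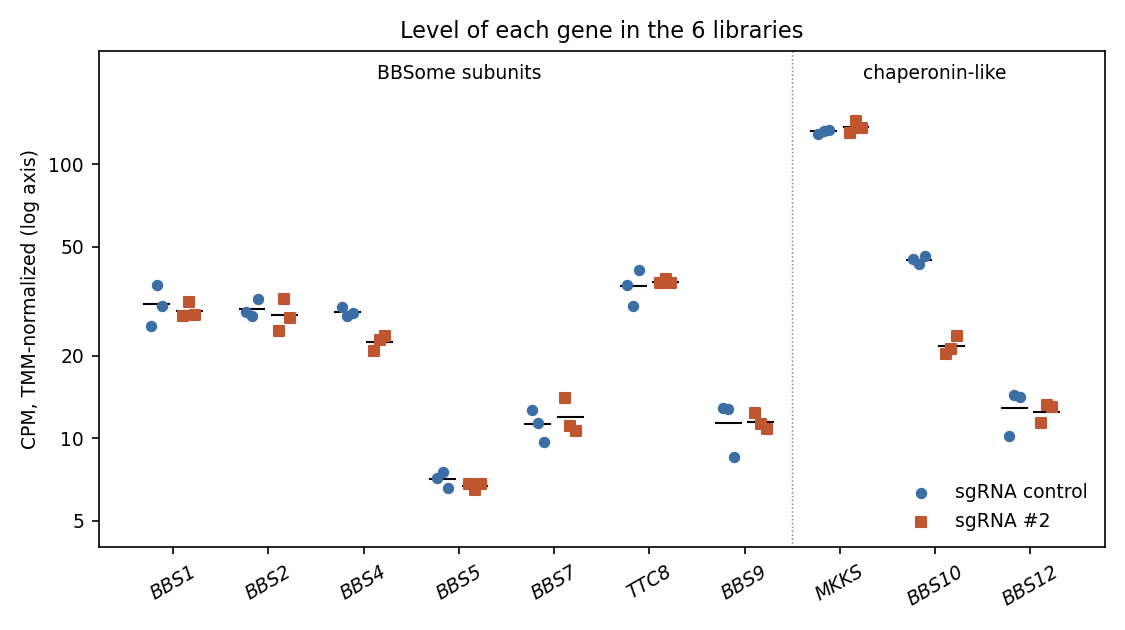
CPM of each of the 10 genes on a log axis, with circles for sgRNA control libraries, squares for sgRNA #2 libraries and a short line for the mean of each group. BBS10 and BBS4 are the 2 genes in which the sgRNA #2 squares all lie below the control circles. Of all tested genes, 8.83% were likewise lower without overlap.

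Across the 10 genes, 1 passed both cut-offs of the study, a log2 fold change of at least 1 in size and an adjusted p under 0.05, against 0.719% of the 13356 genes tested (0.689% lower and 0.0299% higher with sgRNA #2). That gene was BBS10, on whose value in this comparison the set was chosen. Of the other 9, 0 passed in edgeR or in either test by DESeq2, 1 had an unadjusted p under 0.05 in edgeR (11.1% of all tested genes did), and 5 had a log2 fold change below 0. Their median log2 fold change was -0.06, beside 0.0035 over all tested genes. The 95% interval of each of the 9 lay between a 2-fold decrease and a 2-fold increase.

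BBS4 was the BBSome subunit with the largest difference. It is a tetratricopeptide repeat protein that is also found at centriolar satellites. It had 190, 197 and 218 counts in control and 147, 152 and 142 in sgRNA #2 libraries. In CPM these were 30.3, 27.9 and 28.7 against 20.9, 22.8 and 23.7. All sgRNA #2 values lay below all control values, as they did for 8.83% of all tested genes. The log2 fold change was -0.37 (SE 0.105, 95% interval -0.59 to -0.15), a level of 77.6% of control, and it missed the threshold (adjusted p = 0.0815). With the replicate number as a block it passed the adjusted threshold (log2 fold change -0.37, adjusted p = 0.00457), as 10.0% of all tested genes did in that fit, and it remained short of the fold cut-off. BBS4 shares part of its locus with HIGD2B on the opposite strand, and whether counting used strand is not given in the sources used here.

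The subunits with β-propeller domains were BBS1, BBS2, BBS7 and BBS9. BBS1 is the subunit through which ARL6 binds, and it had 162, 256 and 232 counts in control and 196, 210 and 169 in sgRNA #2 libraries, with a log2 fold change of -0.08 (SE 0.120, 95% interval -0.34 to 0.17, adjusted p = 0.88). BBS2, which with BBS7 and BBS9 forms the core that the chaperonin-like proteins help to assemble, had 182, 198 and 245 counts in control and 174, 215 and 165 in sgRNA #2 libraries. Its log2 fold change was -0.08 (SE 0.114, 95% interval -0.32 to 0.16, adjusted p = 0.877). In both genes the groups overlapped.

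BBS7 had 80, 80 and 74 counts in control and 99, 74 and 64 in sgRNA #2 libraries, with a log2 fold change of 0.10 (SE 0.163, 95% interval -0.25 to 0.44, adjusted p = 0.9). BBS9 had 81, 90 and 65 counts in control and 87, 75 and 65 in sgRNA #2 libraries, with a log2 fold change of 0.02 (SE 0.172, 95% interval -0.34 to 0.39, adjusted p = 0.981). These core subunits thus overlapped between groups as BBS1 and BBS2 did. BBS1, BBS2 and BBS9 each have annotated genes that overlap them on the opposite strand, and BBS1, BBS2, BBS5, TTC8 and BBS9 have such genes on their own strand. This makes these counts less certain than those of BBS7, BBS10 and BBS12. MKKS has 3 annotated gene records under its symbol, and overlap between records of the same symbol was not counted.

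TTC8, a tetratricopeptide repeat subunit also called BBS8, had 228, 214 and 313 counts in control and 260, 255 and 221 in sgRNA #2 libraries. Its log2 fold change was 0.05 (SE 0.108, 95% interval -0.17 to 0.28, adjusted p = 0.919). BBS5, the subunit with pleckstrin homology folds that bind phosphoinositides, had 45, 53 and 50 counts in control and 48, 43 and 41 in sgRNA #2 libraries, with a log2 fold change of -0.08 (SE 0.180, 95% interval -0.46 to 0.30, adjusted p = 0.932). It had the fewest reads of the 10, and the widest interval. BBIP1, the small subunit that is not in the set, had 104, 105 and 131 counts in control and 112, 121 and 105 in sgRNA #2 libraries (log2 fold change 0.08, adjusted p = 0.893).

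The 7 BBSome subunits of the set summed to 154.2 to 157.4 CPM in control and 143.8 to 153.8 CPM in sgRNA #2 libraries. These sums did not overlap, but the lowest control sum and the highest sgRNA #2 sum were nearly equal. Without BBS4 the sums were 124 to 129 and 121 to 131 CPM, which overlapped. Both sums were over the same 6 libraries as the single genes.

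**Figure D2:**
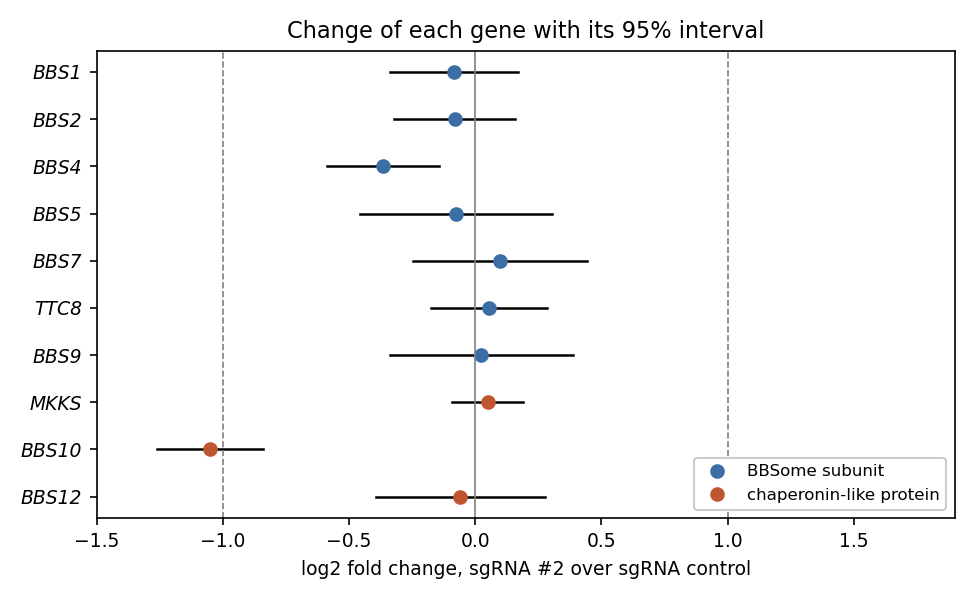
Log2 fold change (sgRNA #2 over sgRNA control) of each of the 10 genes, with bars for the 95% interval and dashed lines at the fold cut-off of 1 in size. BBS10 lies at -1.05, BBS4 at -0.37, and the other 8 between -0.08 and 0.10.

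Levels of the 10 genes were compared with each other in the control libraries as CPM per kb, over all annotated exon bases of each gene. MKKS was highest at 18.8 ± 0.327 CPM per kb (SD, n = 3), followed by BBS10 at 12.6 ± 0.436 and BBS4 at 6.98 ± 0.289. TTC8 at 5.74 ± 0.867, BBS1 at 5.03 ± 0.856 and BBS12 at 3.77 ± 0.697 formed a series in which each overlapped the next. BBS7 was at 2.29 ± 0.306, BBS2 at 1.77 ± 0.130, BBS5 at 1.67 ± 0.111 and BBS9 at 1.27 ± 0.275, and of these neighbours only BBS2 and BBS5 overlapped. The chaperonin-like genes MKKS and BBS10 were thus above all 7 subunits on this scale, and BBS12 was below BBS4, with TTC8 and BBS1 in between.

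With sgRNA #2, BBS10 was at 6.09 ± 0.483 CPM per kb (SD, n = 3) and still second in the order, next to TTC8 at 5.97. The order of levels depended on the transcript length used. Per kb of the canonical transcript, TTC8 was at 16.5, BBS10 at 12.6, BBS4 at 11.7 and BBS2 at 11.003 CPM per kb in control libraries, so that BBS10 had rank 3 and BBS2 rank 5. BBS10 and BBS12 have 2 exons each, and the canonical transcripts of the other members have 6 to 23. The processing notes name Bowtie2, which does not align across introns, without saying what it was used for, and its part in these differences between genes was not tested.

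**Figure D3:**
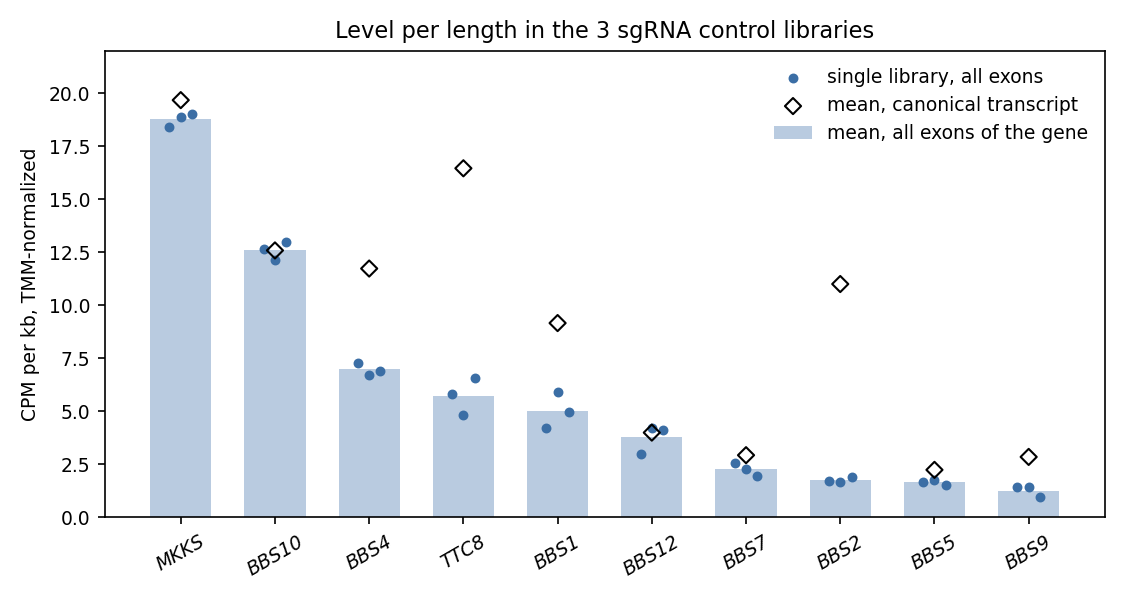
Level of each of the 10 genes in the 3 sgRNA control libraries in CPM per kb, in order of the mean over all exons of the gene (bars), with points for single libraries and open diamonds for the mean per kb of the canonical transcript. MKKS has the highest bar at 18.8 and BBS9 the lowest at 1.27, and the diamonds of TTC8 and BBS2 lie far above their bars, at 16.5 and 11.003.

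The wider machinery of the primary cilium was measured to set BBS10 in its pathway. Over all other ciliary, chaperonin and Hedgehog genes of the lists, 100 of 115 passed the count filter, and 0 passed the adjusted threshold in edgeR (2.69% of all tested genes did, 2.22% lower and 0.464% higher) or in the DESeq2 Wald test. At an unadjusted p under 0.05 there were 4 of the 100 in edgeR, where 11.1% of all tested genes were, and 2 in DESeq2. Their median log2 fold change was 0.02, 39 were below 0, and the 95% interval of 99 of them lay within a 2-fold change. With the replicate block 3 passed the adjusted threshold, CCT3 and CCT6A higher and EVC lower, where 10.0% of all tested genes passed in that fit.

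Closest to the set were 12 further Bardet-Biedl genes and BBSome partners, all tested, with a median log2 fold change of 0.01 and 5 below 0. The smallest p-values were those of LZTFL1, which restrains BBSome entry into the cilium (log2 fold change -0.23, adjusted p = 0.506), and MKS1, a transition zone protein (0.27, adjusted p = 0.619). For ARL6, the GTPase that recruits the BBSome, the value was -0.08 (adjusted p = 0.933).

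The tested subunits of CCT, the cytosolic chaperonin that folds actin and tubulin and with which BBS10 works, were the group with the most uniform sign. Of 9 subunits 8 were tested, and all 8 had values above 0, from 0.07 for CCT5 to 0.14 for CCT3 (median 0.10). CCT6B fell under the count filter, with 6, 8 and 18 counts in control and 2, 5 and 4 in sgRNA #2 libraries. In CPM it went the other way, lower with sgRNA #2 without overlap. Of all tested genes, 15.6% did not overlap in either direction, which includes the 8.83% that were lower with sgRNA #2. In CCT2, CCT3, CCT4, CCT6A and CCT7 all sgRNA #2 values lay above all control values. None passed, and 2 of the 8 had an unadjusted p under 0.05, CCT3 (SE 0.0620, adjusted p = 0.37) and CCT6A (log2 fold change 0.13, SE 0.0610, adjusted p = 0.422). With the replicate block both passed the adjusted threshold (adjusted p = 0.0128 for CCT3 and 0.0324 for CCT6A), with differences far short of the fold cut-off. As for BBS4, the p-values of that fit used a variance shared across genes.

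IFT-B, the train complex for transport towards the tip of the cilium, had 17 of 17 subunits tested and 14 below 0, with a median log2 fold change of -0.08, where 6534 of all 13356 tested genes were below 0. IFT20 (-0.23, adjusted p = 0.58) and IFT81, a tubulin-binding subunit (-0.17, adjusted p = 0.668), had the smallest p-values. IFT-A, the complex of return transport, had 6 of 6 tested with a median of 0.05, and WDR35 (0.16, adjusted p = 0.569) and IFT43 (-0.23, adjusted p = 0.749) led it. Of 8 motor genes 7 were tested with a median of 0.13, led by DYNC2H1, the dynein heavy chain of return transport (0.19, adjusted p = 0.685), and KIFAP3, the kinesin-II adaptor (0.20, adjusted p = 0.702), while KIF17 had at most 5 counts.

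At the base of the cilium, 15 of 15 transition zone genes were tested with a median log2 fold change of 0.06, and NPHP4 (0.24, adjusted p = 0.605) stood beside MKS1. The 13 genes of ciliary membrane trafficking had a median of 0.01, with RP2, a GTPase-activating protein for ARL3 (0.18, adjusted p = 0.385), and UNC119, a carrier of myristoylated proteins (-0.11, adjusted p = 0.726). Both groups lay near the median of all tested genes.

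Hedgehog signalling and ciliary receptors, whose passage through the cilium involves the BBSome, had 14 of 18 genes tested with a median log2 fold change of -0.04. EVC, a ciliary protein that acts with Smoothened, had a value of -0.21 (SE 0.0924, adjusted p = 0.365), and with the replicate block -0.22 (adjusted p = 0.0375). GPR161, a receptor that holds the pathway off, had a value of -0.13 (adjusted p = 0.771). SSTR3 and MCHR1, receptors that the BBSome carries in neurons, were at 0 in all 6 libraries, so no difference was detectable in them at this depth.

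The 5 RFX factors had a median log2 fold change of 0.08, led by RFX1 (0.21, adjusted p = 0.684) and RFX5 (0.08, adjusted p = 0.767). Of 16 genes of motile cilia 7 were tested, with a median of 0.07, and the 9 that were not tested had at most 12 counts in any library. FOXJ1, the master regulator of motile cilia, had 0 to 2 counts. CCNO had a value of 0.24 (adjusted p = 0.636) and TPPP3 of -0.36 (adjusted p = 0.841), the latter with an interval that reached -1.21.

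**Figure D4:**
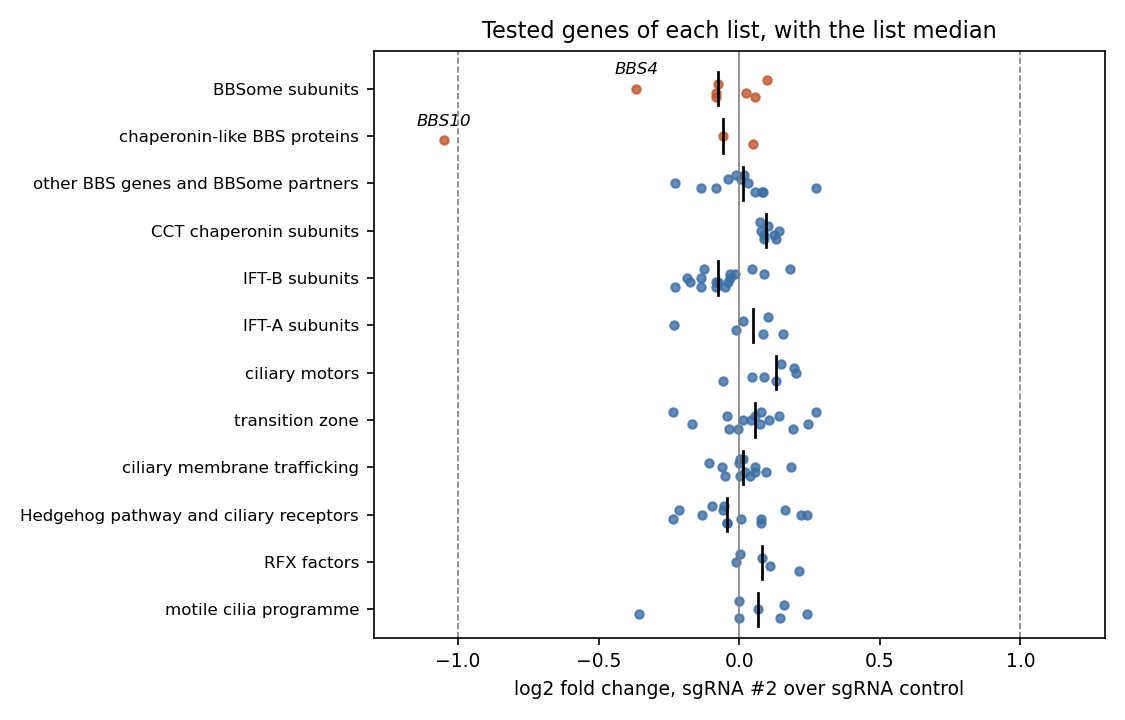
Log2 fold change (sgRNA #2 over sgRNA control) of every tested gene of each list, with a point for each gene and a bar for the median of the list. BBS10 is apart from the other points at -1.05, and the CCT points all lie between 0.07 and 0.14.

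BBS10 lies at chr12:76344474-76348415 on the minus strand (GRCh38, GENCODE 44), has 1 annotated transcript of 3568 bases and overlaps no other annotated gene. The only other gene of the count files with a start site within 200 kb was OSBPL8, on the same strand. OSBPL8 is an oxysterol-binding protein of the endoplasmic reticulum. Its nearest annotated start was 23447 bp away, while the gene extends to chr12:76559809, where its outermost start lies beyond 200 kb. OSBPL8 had 663, 632 and 705 counts in control and 714, 580 and 598 in sgRNA #2 libraries, and the groups overlapped. Its mean was 95.9 ± 8.50 CPM in control and 96.1 ± 7.84 CPM in sgRNA #2 libraries (SD, n = 3 each), a log2 fold change of 0.0042 (SE 0.0809, adjusted p = 0.994).

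The genes whose log2 CPM followed BBS10 most closely over the 6 libraries were FDFT1, the squalene synthase (Pearson's r = 0.998), KREMEN1, a receptor for Dickkopf proteins (0.997), SFTPB (0.996), TUBGCP2, a subunit of γ-tubulin complexes (0.996), and LGALS1, galectin-1 (0.995). The 6 points are 2 groups of 3, so r mostly describes a difference between groups, and 336 tested genes (2.52%) had an r above 0.9. Within the set BBS4 had 0.97 and BBS5 0.50, and the other 7 ranged from -0.44 for MKKS to 0.35 for BBS2.

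The log2 fold change of BBS10 ranged from -1.11 to -1.0002 over the alternatives, all of them refits of the libraries on which it was selected, so the range describes how far its value depends on the settings and is no separate support. Without sgRNA #2 replicate 1 the value was -1.0002, at the cut-off itself, and the test by DESeq2 against a 2-fold threshold did not call BBS10 at -1.05.

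**Figure D5:**
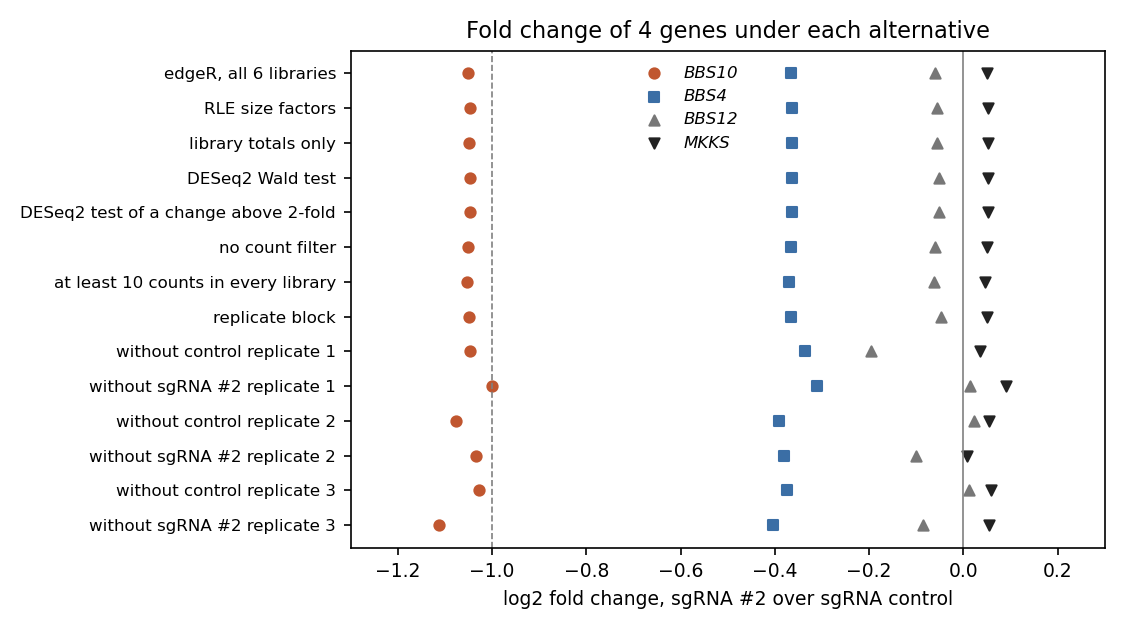
Log2 fold change (sgRNA #2 over sgRNA control) of BBS10, BBS4, BBS12 and MKKS in the edgeR comparison of all 6 libraries and in each alternative, with the dashed line at a log2 fold change of -1. BBS10 stays between -1.11 and -1.0002, BBS4 between -0.40 and -0.31, and BBS12 crosses 0 when single libraries are left out.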

How the data were processed

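RNA was sequenced from 6 A549 cultures (3 sgRNA control, 3 sgRNA #2), grouped by the labels. The authors counted reads per gene with htseq-count, and the deposited values are raw counts, 1 library per file. The submitters' processing notes name the build hg38 and Trim Galore, FastQC, Bowtie2 2.3.3.1, SAMtools, Picard and HTSeq. The role of each tool, the gene annotation and the strand setting are not given in the sources used here. Reads in no gene were 19.7 to 21.1% and ambiguous reads 2.61 to 2.75%, and both were left out of library totals.

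The 13356 genes that reached 10 counts in 3 or more libraries were tested with edgeR 4.0.16 (TMM factors, quasi-likelihood test, Benjamini-Hochberg adjustment) in R 4.3.3, using the study's cut-offs (log2 fold change of at least 1 in size, adjusted p under 0.05). The authors used DESeq2, which was run as an alternative (1.42.0). CPM values use TMM library sizes. Standard errors are the log2 fold change divided by the square root of F. The procedure was tested on simulated data. An exact permutation test of 3 against 3 cannot go below p = 0.1, so none was used. Replicates differed by more than sampling noise (chi-square per degree of freedom 2.72 to 3.61).

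Replicate numbers come from the labels. Same-numbered libraries deviated together from their group means (correlations 0.269, 0.287 and 0.291), so the numbers were taken to pair the samples. For different numbers the correlations were -0.180 to -0.100, but deviations from a group mean cancel out, so negative values there are partly built in. The main comparison did not use this pairing, because the study's methods name no block. Every adjusted p not given as from the replicate block is from that unpaired fit.

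Gene positions and lengths are from GENCODE 44 (GRCh38). Of the 26485 symbols 24545 were matched, 1384 of them through an older symbol. The guide was matched from the PAM within 1000 bp of start sites (500 and 2000 bp as alternatives).

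The members and lists were chosen with earlier results of these data known. Named genes were all 10 members, the 2 genes of smallest p in each list or those past the adjusted threshold, genes within 200 kb of BBS10, SFTPB, and the 5 genes most correlated with BBS10. BBIP1, ARL6, CCT2, CCT4, CCT5, CCT7, FOXJ1, KRT8, AKR1B10, EPCAM, COL1A1, ACTA2 and genes under the count filter were named after their values were seen.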

Additional observations from a re-analysis of the deposited data

How the results depend on the processing

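Alternatives were RLE size factors, library totals, 2 DESeq2 tests, no count filter, a filter of 10 counts in each of the 6 libraries, the replicate block and the fits without single libraries. The count of members past both cut-offs was 1 in each except the DESeq2 test of a change above 2-fold, where it was 0 (BBS10 at -1.05). That gene was BBS10 throughout, which was selected on these libraries, so the count is no sign of stability. With the replicate block BBS10 had a log2 fold change of -1.05, and of the genes named here the adjusted threshold was newly passed by BBS4, CCT3, CCT6A, EVC, KRT8 and AKR1B10, of which none reached the fold cut-off. Over all tested genes 96 passed both cut-offs, 21 in the DESeq2 test of a change above 2-fold, which asks for more than the cut-offs, 63 with the stricter filter, which tests fewer genes, 122 with the replicate block, and 65 to 94 without single libraries. Leaving out single libraries gave BBS10 values of -1.11 to -1.0002 and turned the sign of 6 uncalled members: BBS1 ranged from -0.19 to 0.047, BBS2 from -0.19 to 0.012, BBS7 from -0.037 to 0.19, TTC8 from -0.055 to 0.17, BBS9 from -0.16 to 0.12 and BBS12 from -0.20 to 0.023. BBS4 kept its sign (-0.40 to -0.31), with adjusted p-values from 0.00457 with the block to 0.362 without single libraries. The place of BBS10 by level per kb was 2, or 3 with the canonical transcript, an alternative chosen after seeing the data. RFX motif matches were 1 with GTTGCCA and 4 with GTTGCC. With 41 to 108 counts a library for BBS5, BBS7, BBS9 and BBS12, changes smaller than their intervals were not detectable at this depth.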

Other observations

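BBS10 was 1 of 23 tested genes with a stretch of 8 or more guide-matching bases next to a PAM centred within 50 bp of a start site. This length and window were set to resemble the BBS10 site, and BBS10 was selected on its change, so its place among the called genes was fixed beforehand. Of these 23 genes, 2 passed both cut-offs, both lower with sgRNA #2, BBS10 and FDFT1, and the median log2 fold change of the 23 was -0.11. Within 1000 bp of a start site, 3 of 135 genes whose longest match was 8 bases, the length found at BBS10, were called lower, BBS10 included (2.22%, against 0.689% of all tested genes). The share was 5.71% of 35 genes at 9 bases, 31.6% of 19 at 10 and 50% of 6 at 11. It was 0% of 1 gene at exactly 12 bases, and 2 of the 3 genes with 12 or more bases were called lower. These counts describe 1 guide in 1 comparison, the values of BBS10 are among them, and binding was not measured. Whether such matches bear on the level of any gene was not tested.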
